A study of Mus musculus with 36 samples.

Results

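The infarcted left ventricle of the mouse 1 week after myocardial infarction (MI) is described here by its mRNA, set against sham-operated ventricles of the same time. The genes are those with at least 1 FPKM (sequenced fragments scaled by transcript length and by all mapped fragments of the library) in at least 3 of these 6 libraries, 12440 of the 16415 genes listed, and the rule does not use the difference between the groups. The MI group held 3 libraries from C57BL/6 males, 8 weeks old at surgery, in which the proximal left anterior descending coronary artery had been tied. The sham group held 3 libraries from males of the same strain and age that were operated on without the tie. Left ventricles were taken 1 week later in both groups. The series holds 36 samples, 18 of them mRNA libraries. Its groups of 1 day and 8 weeks were used to compare stages and also entered the main model, where all 18 libraries gave the spread. RNA came from pooled ventricles, and neither the number of animals in a library nor whether libraries came from separate animals is given. The p-values below thus measure only the spread between libraries within these groups, which may be technical. The labels name the left ventricle as a whole and do not separate scar from surviving muscle.

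After an infarct, leukocytes enter the dead muscle, macrophages engulf its remains, and fibroblasts divide, become contractile myofibroblasts and lay down the collagen that turns into scar. Ventricular muscle cells of adult mammals divide little, so the muscle that is lost is not rebuilt, and the muscle that survives is known to lower its genes for fat oxidation and to raise some fetal genes. In a whole ventricle these programs are measured together, and fewer cells of a type and less RNA per cell cannot be told apart.

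The 6 libraries formed 2 tight groups. Pearson correlations of log2(FPKM + 1) over the genes tested were 0.984 to 0.994 among the MI libraries and 0.994 to 0.996 among the sham libraries, and 0.678 to 0.788 between the groups. FPKM summed to 388260 to 403190 in the MI libraries and to 307020 to 329240 in the sham libraries. The 100 most abundant genes took 30.7% to 32.2% of that sum in MI libraries, against 41.0% to 42.6% in sham libraries, and 12294 to 12381 genes reached 1 FPKM in MI libraries, against 10540 to 10803 in sham libraries. No counts were given, so depth is unknown. Its ratio to that of sham library 1, read from the smallest FPKM steps of low genes, was 0.959, 0.854 and 0.797 in the MI libraries, against 0.996 and 1.01 in sham libraries 2 and 3. MI library 3 was the closest to the sham libraries. MI library 1 stood apart in genes of neighbouring tissue. Mylpf, a light chain of fast skeletal muscle myosin, had 13.2, 0.520 and 0.495 FPKM in MI libraries 1 to 3, against 0.638, 0.931 and 0.677 FPKM in sham libraries, and Krt19, a keratin of the mesothelium that covers the heart, had 6.26, 0.654 and 0.876 FPKM in MI libraries, against 0.0930, 0.0467 and 0.0459 FPKM in sham libraries.

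Most genes differed between the groups, so a list of genes must be read against that background. With limma on log2(FPKM + 1) and a Benjamini-Hochberg adjusted p below 0.05, 9161 genes (73.6% of those tested) were higher and 2068 (16.6%) were lower in MI. The median log2 fold change of all genes tested was 0.81. With median-ratio factors, which set a typical gene to the same level in all libraries, 5998 genes (48.2%) were higher and 4369 (35.1%) lower, and the median was 0.16. After quantile normalization 5247 genes (42.2%) were higher and 4940 (39.7%) lower. Higher genes were thus 81.6% of the calls on the deposited scale, 57.9% with median-ratio factors and 51.5% after quantile normalization, and 1183 genes were called higher on the deposited scale but lower with median-ratio factors, whereas all 2068 lower genes stayed lower. Counts with median-ratio factors are therefore given beside the main ones. A log2 fold change is on the log2(FPKM + 1) scale throughout, which understates the change of low genes. By ratio of mean FPKM, 567 genes were at least 16-fold higher and 33 at least 16-fold lower in MI.

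The filter admitted 1577 genes that reached 1 FPKM only through the MI libraries and 173 only through the sham libraries. Such a gene had to differ, so lists with many of them are also counted over all their listed genes with no filter, where 66% of 16409 genes were higher and 14.9% lower. Just inside the filter, Cd3d, a chain of the T cell receptor complex, had 1.08, 1.02 and 1.00 FPKM in MI, against 0.0483, 0.0485 and 0.0258 FPKM in sham libraries. Just outside it, Stac2 had 1.199, 1.38 and 0.999 FPKM in MI, against 0.0672, 0.0483 and 0.0568 FPKM in sham libraries.

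**Figure D1:**
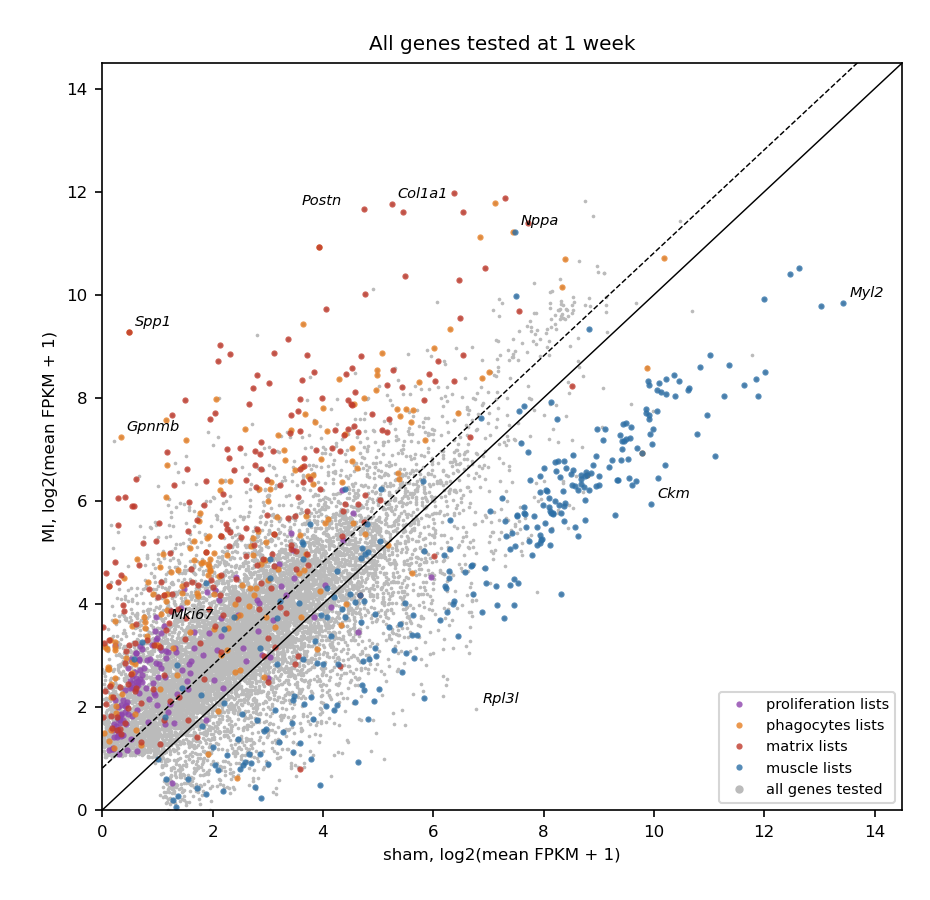
Each point is 1 of the 12440 genes tested, with its log2(mean FPKM + 1) over 3 MI libraries on the vertical axis and over 3 sham libraries on the horizontal axis, coloured where the gene belongs to a list of the given kind. The solid line marks equal levels and the dashed line the median log2 fold change of 0.81. Matrix and phagocyte genes lie far above both lines, proliferation genes lie above them at low levels, and most muscle genes lie below.

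In the scatter of all genes, the genes of proliferation, phagocytes, matrix and muscle lie in different places. Muscle genes were the most abundant of the sham ventricle, and collagen and matrix genes took their place at the top of the scale in MI.

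Genes of cell division were higher in MI nearly throughout, from low sham levels. Mki67 (chr7:135689784-135716450, mm10), which codes for the Ki-67 protein of cycling cells, had 11.2, 12.7 and 8.91 FPKM in MI libraries, against 1.54, 0.854 and 1.14 FPKM in sham libraries. All 3 MI libraries were above all 3 sham libraries, and the log2 fold change was 2.46 (SE 0.17, adjusted p 2.58e-09). Cdk1, the kinase that drives entry into mitosis, had 8.702, 9.04 and 6.64 FPKM in MI libraries, against 0.853, 0.372 and 0.618 FPKM in sham libraries (log2 fold change 2.5, given in brackets alone from here on), and Top2a, which untangles replicated DNA, had 13.7, 16.1 and 10.98 FPKM in MI libraries, against 1.86, 0.916 and 1.36 FPKM in sham libraries (2.62). In each of these genes MI library 3 was the lowest of the MI libraries, and all MI libraries stayed above all sham libraries.

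Mitosis and cytokinesis held 78 listed genes. Over all 78 with no filter, 75 were higher and 1 was lower, and of the 76 that passed the filter, 52 of them only through the MI libraries, 73 were higher and 1 lower (72 and 3 with median-ratio factors). Their median log2 fold change was 1.80, against 0.81 for all genes. The largest rises were those of Cks2, a subunit of cyclin-dependent kinases, with a log2 fold change of 2.77, and Birc5, the survivin subunit of the chromosomal passenger complex, with 12.3, 15.5 and 9.52 FPKM in MI libraries, against 1.23, 0.674 and 1.02 FPKM in sham libraries (2.75). Ccnb1, the mitotic cyclin B1, had a log2 fold change of 2.42, and Foxm1, a transcription factor of mitotic genes, had 4.27 ± 0.905 FPKM in MI and 0.449 ± 0.104 FPKM in sham libraries, as mean ± s.d. with n = 3 each here and wherever ± is printed (1.85). The level was highest in MI library 2 for 67 of the 76 genes and lowest in MI library 3 for all 73 that were higher. Of all 12440 genes tested 3031 were highest in MI library 2, and of all 9161 higher genes 5548 were lowest in MI library 3. The gene that fell was Pttg1, securin, which keeps sister chromatids from separating until anaphase. It had 19.2, 21.7 and 24.7 FPKM in MI libraries, against 58.2, 60.8 and 64.5 FPKM in sham libraries, a log2 fold change of -1.45 (SE 0.13, adjusted p 3.57e-08), with no overlap between the groups.

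DNA replication genes moved the same way but less far. Over all 43 listed genes 39 were higher and 1 lower, and of 40 that passed the filter 36 were higher and 1 lower (32 and 5 with median-ratio factors), with a median of 1.29. Mcm6 and Mcm5, subunits of the replicative helicase, had log2 fold changes of 2.31 and 1.696. Rrm2, the regulated subunit of ribonucleotide reductase, had 6.92, 9.12 and 6.48 FPKM in MI libraries, against 1.298, 1.18 and 1.18 FPKM in sham libraries (1.93), and Tk1, thymidine kinase of S phase, had a log2 fold change of 2.15. Both genes were several times higher in each MI library than in any sham library. The exception was Gmnn, geminin, which blocks relicensing of origins. It had 8.28, 9.85 and 11.6 FPKM in MI libraries, against 25.2, 23.6 and 23.1 FPKM in sham libraries (-1.21, adjusted p 1.16e-06), opposite to the rest of the list.

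The regulators of the start of the cycle were less uniform. Over all 25 listed genes of G1 and S phase 23 were higher and 1 lower, and of 24 that passed the filter 22 were higher and 1 lower (17 and 3 with median-ratio factors), with a median of 1.04. Myc, a growth-promoting transcription factor, had 5.87, 7.18 and 6.94 FPKM in MI libraries, against 0.9201, 0.638 and 0.931 FPKM in sham libraries (2.07), whereas its relative Mycn had a log2 fold change of -0.75. Cdk4, a kinase of G1, had 73.2 ± 5.16 FPKM in MI and 19.4 ± 1.48 FPKM in sham libraries (1.86). Ccnd1, the cyclin D1 that partners Cdk4, had 12.2, 14.2 and 16.6 FPKM in MI libraries, against 20.4, 14.9 and 14.6 FPKM in sham libraries, with overlapping groups and no call (-0.19, adjusted p 0.278). With median-ratio factors it was lower (-0.96).

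Inhibitors of cyclin-dependent kinases were raised beside the kinases. Of 7 listed, 6 were higher and 1 lower (5 and 1 with median-ratio factors). Cdkn2b, the INK4b inhibitor of Cdk4 and Cdk6, had 8.21, 9.18 and 7.302 FPKM in MI libraries, against 0.252, 0.0919 and 0.1805 FPKM in sham libraries (2.97, adjusted p 2.12e-09), and Cdkn1a, p21, had 32.5, 36.7 and 26.8 FPKM in MI libraries, against 10.1, 5.87 and 14.01 FPKM in sham libraries (1.64). Both were among the largest changes of the list, which were named only where the groups did not overlap. Cdkn1c, p57, had 5.43, 3.86 and 5.47 FPKM in MI libraries, against 8.07, 6.49 and 6.44 FPKM in sham libraries (-0.44, adjusted p 0.0106). That call was lost without MI library 2 (adjusted p 0.0726) and without sham library 1 (adjusted p 0.0572). Whether cycling cells were macrophages, fibroblasts, endothelial cells or other cells was not measured, and the marker levels of these cell types, given below, rose in MI or were mixed. Their part in the proliferation result was not tested.

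Promoters of the mitosis genes were read for the letters through which the DREAM and MuvB complexes and NF-Y are known to act, the cell cycle homology region (CHR, here TTTGAA or TTCGAA) and the CCAAT box (CCAAT), both searched on either strand in the 300 bases from 250 before to 50 after the gene start (RefSeq, GRCm38.p6). Of the 76 genes, 62 had a promoter in that table. A CHR was found in 47 of them (75.8%), against 19.4% of all 27018 promoters, a CCAAT box in 46 (74.2%), against 37.9%, and both in 38 (61.3%), against 7.7%. In 1 of the 62 a CHR and a CCAAT box shared letters. Of all genes tested, 9911 had a promoter, with a CHR in 13.8%, a CCAAT box in 38.6% and both in 5.86%. A match describes the letters only and does not show that a factor was bound. The promoters of Cdk1 and Top2a are shown because both genes carry both motifs and rose in every MI library. Cdk1 lies at chr10:69352863-69353162 and Top2a at chr11:99024140-99024439, both on the minus strand. Capitals mark the CHR and CCAAT matches, 5 in Cdk1 and 10 in Top2a.
Cdk1: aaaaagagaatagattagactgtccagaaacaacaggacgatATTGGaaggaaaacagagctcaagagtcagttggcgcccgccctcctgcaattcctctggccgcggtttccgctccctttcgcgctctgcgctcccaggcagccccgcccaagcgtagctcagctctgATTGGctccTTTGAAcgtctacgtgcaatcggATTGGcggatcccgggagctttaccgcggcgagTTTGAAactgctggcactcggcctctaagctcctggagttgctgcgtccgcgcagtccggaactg
Top2a: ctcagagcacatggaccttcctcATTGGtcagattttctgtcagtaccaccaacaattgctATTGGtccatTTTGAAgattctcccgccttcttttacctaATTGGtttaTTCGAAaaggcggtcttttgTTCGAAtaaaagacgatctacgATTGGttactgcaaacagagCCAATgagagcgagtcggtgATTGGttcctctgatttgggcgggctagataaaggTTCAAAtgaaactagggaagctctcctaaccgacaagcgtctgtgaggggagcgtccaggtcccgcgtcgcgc

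**Figure D2:**
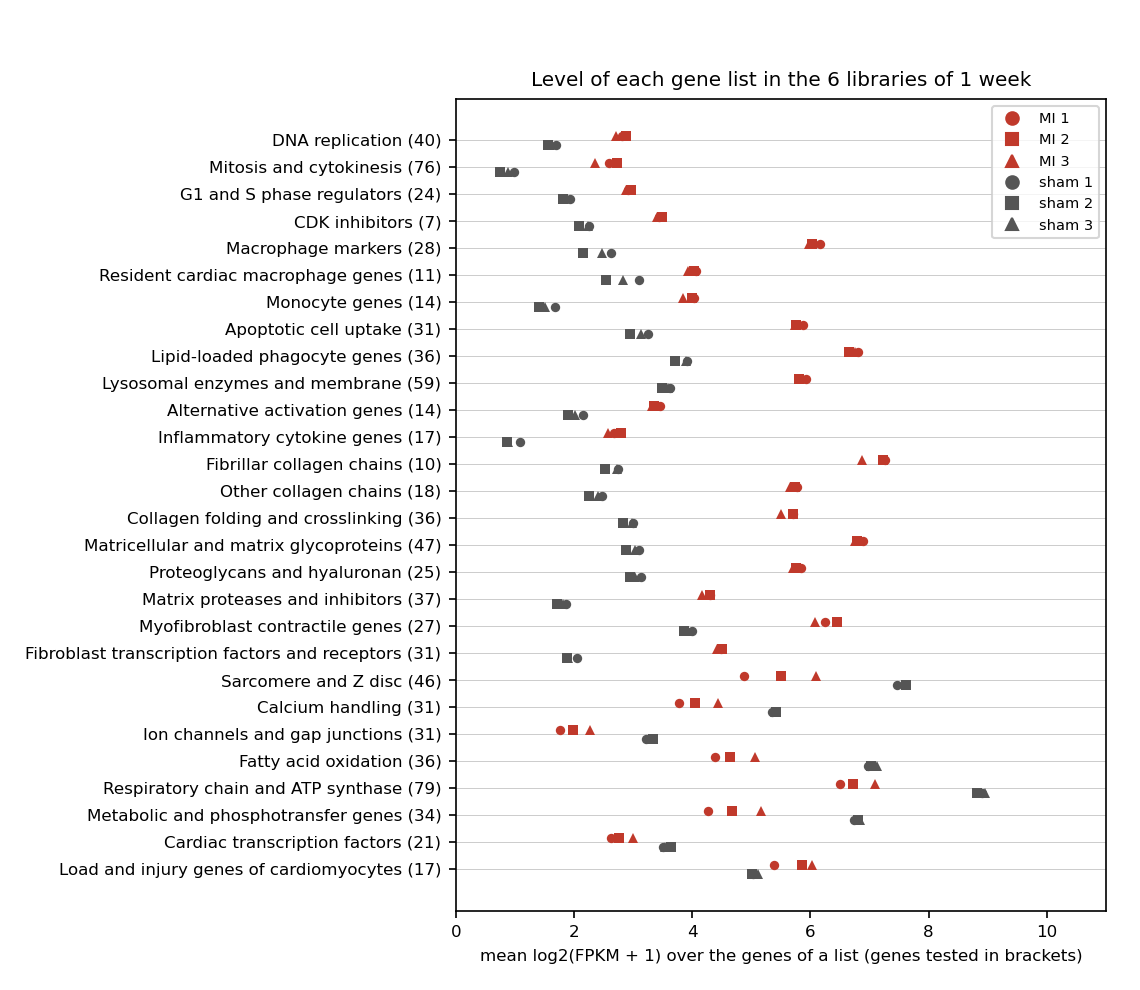
Each symbol is the mean log2(FPKM + 1) over the tested genes of a list, given in brackets, in 1 library of 1 week, red for MI and grey for sham. The 3 MI libraries lie to the right of the 3 sham libraries in all lists of proliferation, phagocytes and matrix, and to the left of them in 7 of the 8 muscle lists, where MI library 3 lies nearest to sham.

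As the levels by library show, the spread between MI libraries was small beside the difference from sham in the phagocyte and matrix lists and wider in the muscle lists.

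Genes of macrophages rose to high levels. All 28 listed markers were higher in MI on the deposited scale and with median-ratio factors, with a median log2 fold change of 3.47, and their FPKM summed to 4929.9 to 5766 in MI libraries, against 217 to 367 in sham libraries. Mpeg1, a pore-forming protein of phagocytes, had 285, 227 and 238 FPKM in MI libraries, against 3.498, 2.66 and 3.36 FPKM in sham libraries (5.91), and Cd68, a lysosomal glycoprotein of macrophages, had 168 ± 11.1 FPKM in MI and 4.98 ± 0.551 FPKM in sham libraries (4.82). Emr1, which codes for the macrophage surface protein F4/80, had 87.9, 79.1 and 80.2 FPKM in MI libraries, against 5.07, 2.97 and 3.89 FPKM in sham libraries (4.09), and Csf1r, the receptor for the growth factor that keeps macrophages alive, had 95.9 ± 5.58 FPKM in MI and 10.3 ± 1.65 FPKM in sham libraries (3.11). Mpeg1 and Cd68 were named as largest changes of the list, a choice that required groups without overlap.

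Genes that recognise and take up dying cells rose with them. Over all 33 listed genes 30 were higher and 2 lower, and of 31 that passed the filter 30 were higher and 1 lower (29 and 1 with median-ratio factors), with a median of 2.88. Trem2, a lipid-sensing receptor of phagocytes (chr17:48346401-48352276), had 118, 93.3 and 99.4 FPKM in MI libraries, against 1.35, 0.767 and 1.64 FPKM in sham libraries (5.55, SE 0.21, adjusted p 2.00e-11), and its signalling partner Tyrobp had 328 ± 36.5 FPKM in MI and 18.5 ± 4.24 FPKM in sham libraries (4.09). Mertk, a receptor that binds dying cells through a bridging ligand, had 15.97, 15.04 and 15.4 FPKM in MI libraries, against 2.16, 1.84 and 1.74 FPKM in sham libraries (2.5), and Gas6, one such ligand, had a log2 fold change of 2.44. C1qa and C1qb, chains of the complement protein C1q that coats debris, had log2 fold changes of 3.51 and 3.84. The gene of this list that fell was Cd36, a fatty acid transporter of muscle and endothelium as well as a scavenger receptor, with 64.8, 82.6 and 121 FPKM in MI libraries, against 458, 416 and 445 FPKM in sham libraries (-2.33).

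The list of lipid-laden phagocyte genes held the largest rise of all genes, that of Spp1, which was also the largest rise of the matricellular list. Which cells made it was not measured. Spp1, osteopontin (chr5:104435111-104441053), had 649, 581 and 618 FPKM in MI libraries, against 0.403, 0.333 and 0.463 FPKM in sham libraries, a log2 fold change of 8.78 (SE 0.39, adjusted p 5.79e-11). Gpnmb, a membrane glycoprotein of lysosome-rich macrophages (chr6:49036518-49058182), had 171, 125 and 153 FPKM in MI libraries, against 0.304, 0.26 and 0.2097 FPKM in sham libraries (6.89), and Lgals3, galectin 3, had 202, 168 and 196 FPKM in MI libraries, against 1.33, 1.204 and 1.14 FPKM in sham libraries (6.41). Each was under 2 FPKM in every sham library and over 100 FPKM in every MI library. Of the 36 genes of this list 31 were higher and 2 lower (30 and 4 with median-ratio factors), with a median of 2.96. Both that fell are also abundant outside phagocytes. Lpl, lipoprotein lipase, had 77.5, 111 and 173 FPKM in MI libraries, against 821, 911 and 906 FPKM in sham libraries (-2.93), and Fabp4, a fatty acid binding protein of capillaries and adipocytes, had a log2 fold change of -1.3.

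Nearly all lysosomal genes rose. Of 59 genes measured, 58 were higher and 1 lower (54 and 3 with median-ratio factors), with a median of 2.44, and their FPKM summed to 7911 to 8983 in MI libraries, against 1557 to 1707 in sham libraries. Ctss, cathepsin S, had 689 ± 102 FPKM in MI and 11.5 ± 2.43 FPKM in sham libraries (5.799). Ctsk, the collagen-cutting cathepsin K, had 76.7, 73.9 and 69.8 FPKM in MI libraries, against 3.48, 3.13 and 3.56 FPKM in sham libraries (4.08), and Lamp1, a main protein of the lysosome membrane, had 364 ± 11.5 FPKM in MI and 128 ± 4.97 FPKM in sham libraries (1.496). Smpd1, acid sphingomyelinase, was the gene that fell, with a log2 fold change of -1.01.

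Genes of the macrophages that reside in the healthy heart rose less uniformly than the macrophage markers. Over all 14 listed genes 6 were higher and 2 lower, and of 11 that passed the filter 6 were higher and 1 lower (6 and 3 with median-ratio factors). The median of the 11 was 1.33, against 3.47 for the macrophage markers and 0.81 for all genes. Over all 14 with no filter the median was 0.58. The FPKM of the 11 summed to 379 to 408 in MI libraries, against 82.8 to 122 in sham libraries. The higher ones included Igf1, insulin-like growth factor 1, with 36.3 ± 0.564 FPKM in MI and 2.15 ± 0.578 FPKM in sham libraries (3.58), which fibroblasts also make, and Stab1, a scavenger receptor (2.55). Lyve1, a hyaluronan receptor of resident macrophages and lymphatic vessels, had 5.36, 5.41 and 4.23 FPKM in MI libraries, against 8.94, 5.14 and 5.83 FPKM in sham libraries, with overlapping groups and no call (-0.32, adjusted p 0.435), and it was called lower with median-ratio factors (adjusted p 0.012). Cd163, a haemoglobin scavenger receptor, had 1.33, 1.11 and 0.897 FPKM in MI libraries, against 3.43, 2.33 and 2.62 FPKM in sham libraries (-0.84, adjusted p 0.0289). That call was lost when any 1 of 4 libraries was left out (adjusted p of 0.0563 without MI library 2, 0.0771 without MI library 3, 0.0917 without sham library 1 and 0.05 without sham library 3). Timd4, a phosphatidylserine receptor of long-lived resident macrophages, was under the filter, with 0.187, 0.275 and 0.208 FPKM in MI libraries, against 0.983, 0.542 and 0.791 FPKM in sham libraries.

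Monocyte genes stood between. Over all 15 listed genes 14 were higher and none lower, and of 14 that passed the filter, 8 of them only through the MI libraries, 13 were higher and none lower (10 and 1 with median-ratio factors), with a median of 2.07. Ccr2, the chemokine receptor that brings monocytes out of the bone marrow, had 22, 22.2 and 17.2 FPKM in MI libraries, against 0.872, 0.706 and 0.755 FPKM in sham libraries (3.58), and Plac8 had a log2 fold change of 4.91. The largest change in this list belonged to Fn1, fibronectin, which fibroblasts make in large amounts.

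Markers of alternative activation were called on the deposited scale at about the shares of all genes tested, 73.6% higher and 16.6% lower. The median of those that passed the filter was 1.84, against 0.81 for all genes. Over all 18 listed genes 11 were higher and 2 lower, and of 14 that passed the filter 10 were higher and 2 lower (9 and 4 with median-ratio factors). Arg1, arginase 1, was listed at 11.7, 15.4 and 7.82 FPKM in MI libraries, against 0.449, 0 and 0.0843 FPKM in sham libraries, with a log2 fold change of 3.398. Clec7a, the beta-glucan receptor dectin 1, had a log2 fold change of 2.904 and Il4ra, the interleukin 4 receptor, of 2.71. Retnla, a secreted protein of alternatively activated and resident macrophages, fell, with 0.858, 0.242 and 0.518 FPKM in MI libraries, against 5.67, 4.01 and 3.71 FPKM in sham libraries (-1.83, adjusted p 0.00428).

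Inflammatory cytokine genes were still raised at low levels. Over 22 measured genes 17 were higher and none lower, and of 17 that passed the filter, 9 of them only through the MI libraries, 16 were higher and none lower (15 and 1 with median-ratio factors). Il6, interleukin 6, had 6.16, 7.11 and 4.14 FPKM in MI libraries, against 0.0923, 0.0616 and 0.0607 FPKM in sham libraries (2.64), and Tlr2, a receptor for microbial and tissue debris, had a log2 fold change of 3.02. Neutrophil markers were low: of 17 listed genes 6 passed the filter, 3 of them only through the MI libraries, and 4 of the 6 were higher (2 with median-ratio factors), while over 14 measured genes with no filter 8 were higher and none lower. The FPKM of the 6 summed to 46.8 to 73.2 in MI libraries, against 15.7 to 38.8 in sham libraries. S100a8, an abundant calcium-binding protein of neutrophils, had 24.8, 29.4 and 17.9 FPKM in MI libraries, against 10.5, 5.78 and 16.6 FPKM in sham libraries (1.14, adjusted p 0.0272), and it was not called with median-ratio factors or quantile normalization. The call was also lost without MI library 1 (adjusted p 0.0605), MI library 2 (0.0866) or sham library 2 (0.14).

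Collagen genes showed the largest shift of any list. All 11 listed fibrillar chains were higher with no filter, as were the 10 that passed it, on both scales, with a median log2 fold change of 5.44. Their FPKM summed to 9957 to 12462 in MI libraries, against 158 to 196 in sham libraries. Col1a1 (chr11:94936224-94953042), the main chain of type I collagen, had 3755, 3845 and 2768 FPKM in MI libraries, against 39.5, 27.98 and 43.3 FPKM in sham libraries (6.52, SE 0.37, adjusted p 4.03e-10), and Col3a1, type III collagen of young scar, had 4303, 4025 and 3813 FPKM in MI libraries, against 86.8, 75.5 and 83.5 FPKM in sham libraries (5.61). In MI libraries both were more abundant per length than any sarcomere gene, whereas in sham libraries they stood far under Myl2, Myh6 and Actc1. Col11a1, a minor chain that sets fibril width in cartilage, had 65.2 ± 22.9 FPKM in MI and 0.214 ± 0.0953 FPKM in sham libraries (5.701), and MI library 3 had the lowest value of the MI libraries.

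Other collagens rose less evenly. Of 30 measured chains 22 were higher and none lower with no filter, and of 18 that passed it 17 were higher and none lower on both scales, with a median of 3.25. Col8a1, a short-chain collagen of remodelling vessels and fibroblasts, had 468 ± 74.4 FPKM in MI and 7.63 ± 2.19 FPKM in sham libraries (5.78), and Col12a1 and Col14a1, which sit on the surface of collagen fibrils, had log2 fold changes of 5.64 and 5.65. Col4a1, the basement membrane collagen that vessels and muscle cells already make, started from a higher level, with 447, 482 and 429 FPKM in MI libraries, against 101, 76.02 and 99.7 FPKM in sham libraries (2.29).

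The machinery that folds and ties collagen rose beside its substrate. Over all 38 listed genes 36 were higher and 1 lower, and of 36 that passed the filter 35 were higher and none lower (33 and 2 with median-ratio factors), with a median of 2.63. Lox, lysyl oxidase, which starts the crosslinks, had 485, 424 and 357 FPKM in MI libraries, against 3.68, 2.45 and 3.66 FPKM in sham libraries (6.63, SE 0.37, adjusted p 4.04e-10). Serpinh1, the collagen chaperone HSP47, had 746 ± 129 FPKM in MI and 88.2 ± 14.9 FPKM in sham libraries (3.06). P4ha3, a prolyl hydroxylase subunit, had 45.5 ± 9.49 FPKM in MI and 0.222 ± 0.132 FPKM in sham libraries (5.23), and Plod2, the lysyl hydroxylase of collagen ends, had a log2 fold change of 3.42.

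Among 47 matricellular and glycoprotein genes 43 were higher and 2 lower (42 and 2 with median-ratio factors), with a median of 3.91. Postn, periostin, a product of activated fibroblasts, had 3488, 3466 and 2815 FPKM in MI libraries, against 27.7, 22.1 and 27.9 FPKM in sham libraries (6.92), and Fn1, fibronectin, had 2206, 2172 and 1472 FPKM in MI libraries, against 15.3, 11.4 and 16.2 FPKM in sham libraries (6.99). Thbs1, thrombospondin 1, had a log2 fold change of 6.501, and Cthrc1, a secreted protein of activated fibroblasts, had 518 ± 80.1 FPKM in MI and 3.39 ± 0.83 FPKM in sham libraries (6.89). Tnc, tenascin C, had 84.4 ± 29.5 FPKM in MI and 0.525 ± 0.0998 FPKM in sham libraries (5.75), with MI library 2 the highest. The lower genes were Vtn, vitronectin (-0.57), and Tnxb, tenascin X, with 4.38, 3.01 and 6.31 FPKM in MI libraries, against 8.05, 6.79 and 6.24 FPKM in sham libraries, groups that overlapped (-0.56, adjusted p 0.0379). The call on Tnxb was lost without MI library 1 (adjusted p 0.0719), MI library 2 (0.2), sham library 1 (0.117) or sham library 2 (0.0634).

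Proteoglycans rose together, 24 of 25 genes higher and 1 lower (23 and 1 with median-ratio factors), with a median of 2.61, and over the 31 measured genes 27 were higher and 2 lower. Bgn, biglycan, had 3324, 3104 and 2962 FPKM in MI libraries, against 105, 73.2 and 96.9 FPKM in sham libraries (5.09), and Fmod, fibromodulin, a regulator of fibril assembly, had 122 ± 10.4 FPKM in MI and 1.26 ± 0.388 FPKM in sham libraries (5.78). Gpc1, a cell surface proteoglycan, was the one that fell, with a log2 fold change of -1.09.

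Of 37 proteases and their inhibitors, of which 13 passed the filter only through the MI libraries, 35 were higher and 2 lower (31 and 2 with median-ratio factors), with a median of 2.41, and over 41 measured genes 38 were higher and 2 lower. Mmp14, a collagenase of the cell surface, had 245, 266 and 191 FPKM in MI libraries, against 6.33, 4.42 and 5.25 FPKM in sham libraries (5.21). Inhibitors moved apart: Timp1 had 188, 232 and 158 FPKM in MI libraries, against 2.54, 1.64 and 4.38 FPKM in sham libraries (5.698), whereas Timp4, the inhibitor typical of heart, had 0.421, 0.448 and 1.33 FPKM in MI libraries, against 9.48, 9.62 and 13.7 FPKM in sham libraries (-2.81, SE 0.25, adjusted p 3.11e-08). Mmp15, another protease of the cell surface, had a log2 fold change of -1.53.

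Contractile genes of myofibroblasts, 27 in all, were higher in 24 and lower in 2 (22 and 3 with median-ratio factors), with a median of 2.71. Acta2, smooth muscle actin, had 382, 475 and 262 FPKM in MI libraries, against 37.3, 41.8 and 32.97 FPKM in sham libraries (3.25), and Csrp2, a LIM protein of smooth muscle, had a log2 fold change of 4.71. MI library 2 had the highest level in 21 of the 27 genes, against 3031 of all 12440 genes tested. Myh11, the smooth muscle myosin of vessels, had 13.5, 14.9 and 14.6 FPKM in MI libraries, against 8.63, 9.05 and 7.14 FPKM in sham libraries, a log2 fold change of 0.73 (adjusted p 7.08e-06), which was -0.02 with no call when median-ratio factors were used. Pericyte markers were mixed, 4 of 10 higher and 3 lower (3 and 5 with median-ratio factors), with Pdgfrb, the platelet-derived growth factor receptor of pericytes and fibroblasts, at a log2 fold change of 2.73.

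Transcription factors and receptors of fibroblasts were higher in 29 of all 32 listed genes and lower in none with no filter. Of 31 that passed it, 9 of them only through the MI libraries, 28 were higher and none lower (28 and 2 with median-ratio factors), with a median of 2.54. The list also holds secreted proteins. Ltbp2, a matrix protein, had 202 ± 16.3 FPKM in MI and 1.402 ± 0.451 FPKM in sham libraries (6.42), and Tgfb3, a ligand of the TGF-beta family, had a log2 fold change of 4.52. Tcf21, a transcription factor of resident cardiac fibroblasts, had 45.9, 38.6 and 52.8 FPKM in MI libraries, against 3.91, 3.78 and 3.59 FPKM in sham libraries (3.29), Meox1, a homeobox factor of activated fibroblasts, had 42.6 ± 7.05 FPKM in MI and 5.96 ± 1.48 FPKM in sham libraries (2.66), and Runx1 had a log2 fold change of 3.58. All MI values of Tcf21, Meox1 and Runx1 were above all sham values, and Ltbp2 and Tgfb3 were named by a rule that required this.

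**Figure D3:**
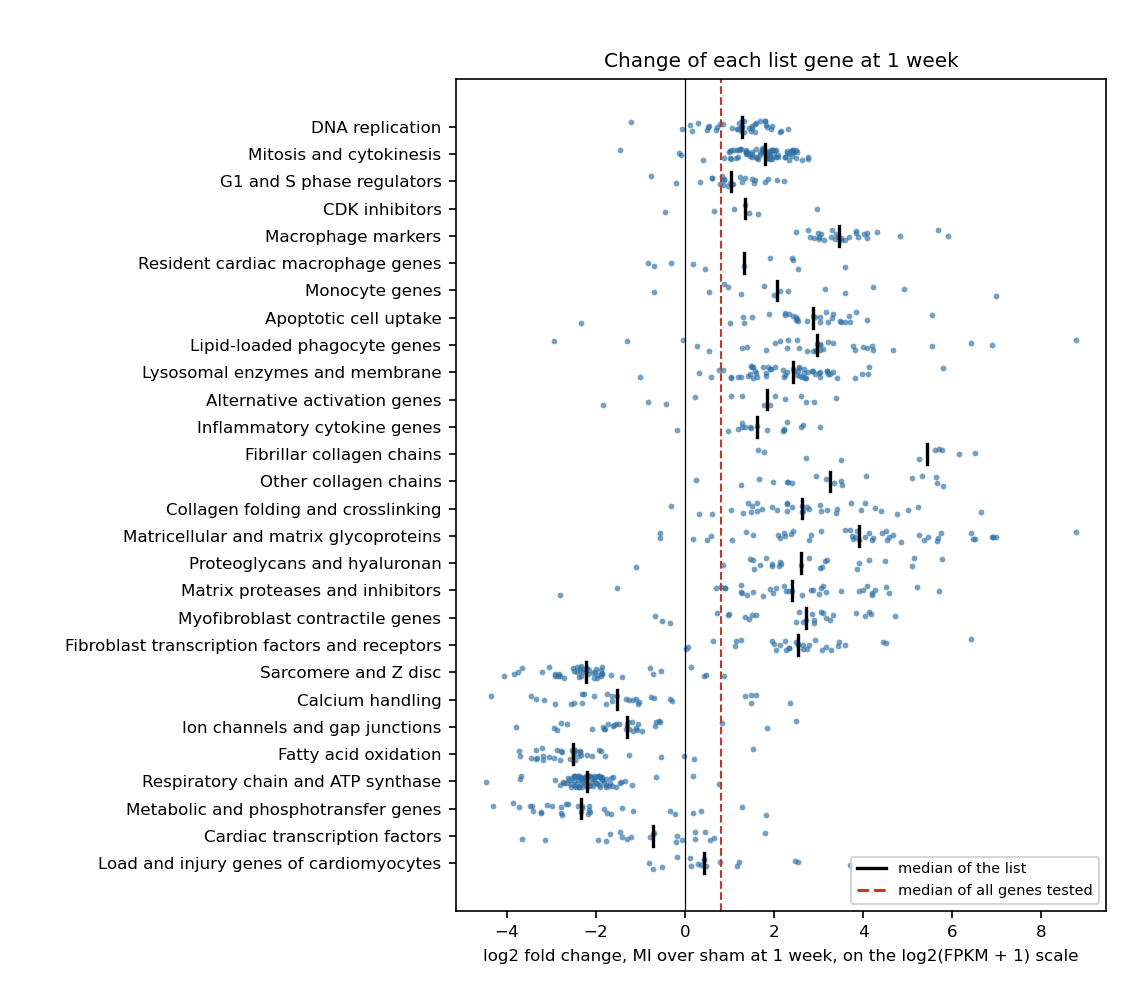
Each point is the log2 fold change of 1 tested gene of a list, MI over sham at 1 week, on the log2(FPKM + 1) scale. Black bars are list medians, which run from 5.44 for fibrillar collagens to -2.50 for fatty acid oxidation, and the dashed line is the median of all genes tested, 0.81.

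The changes of single genes show that few members left their list. Isolated points lie on the other side of 0 in most lists, and the load and injury genes spread on both sides of it.

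Most genes fell in 7 of the 8 muscle lists, and the MI levels differed between libraries. Of 46 sarcomere and Z disc genes 40 were lower and 1 higher (42 and 0 with median-ratio factors), with a median of -2.23. Their FPKM summed to 4999 to 13441 in MI libraries, against 46483 to 53271 in sham libraries. Tnni3, adult cardiac troponin I, had 119.7, 209 and 455 FPKM in MI libraries, against 3546, 3781 and 4001 FPKM in sham libraries (-4.06, SE 0.37, adjusted p 4.40e-08), and Myl2, the ventricular regulatory light chain, had 913 ± 647 FPKM in MI and 11076 ± 439 FPKM in sham libraries (-3.84). Myh6 (chr14:54941921-54968017), the fast myosin of adult mouse ventricle, had 120.0, 231 and 553 FPKM in MI libraries, against 2636, 3531 and 3349 FPKM in sham libraries (-3.66). Actc1, cardiac actin, had 739.8, 1228 and 2104 FPKM in MI libraries, against 4992, 5664 and 6399.6 FPKM in sham libraries (-2.19), and Ttn, the giant spring protein titin, had 6.59 ± 2.73 FPKM in MI and 27.5 ± 7.35 FPKM in sham libraries (-1.95).

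MI library 3 kept the highest level of the MI libraries in 45 of the 46 sarcomere genes and in 1757 of all 2068 lower genes, and its summed sarcomere FPKM was 2.69 times that of MI library 1. Without any 1 of the 6 libraries, 40 to 42 of the sarcomere genes were called lower, with medians from -2.45 to -1.93.

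Myh7 and Acta1, genes of the fetal program, were not called on the deposited scale. Myh7 (chr14:54970684-54994626), the slow myosin of fetal mouse ventricle, had 47.2, 79.2 and 121 FPKM in MI libraries, against 45.6, 66.8 and 54.4 FPKM in sham libraries, with overlapping groups and no call (0.48, adjusted p 0.153). Its direction turned with the scaling (-0.33 with median-ratio factors), and it was called higher without MI library 1 (0.82, adjusted p 0.0158). Acta1, skeletal actin, had 48.2, 148 and 218 FPKM in MI libraries, against 211, 199.5 and 165 FPKM in sham libraries (-0.71, adjusted p 0.151), and it was called lower with median-ratio factors (-1.52) and without MI library 3 (-1.16, adjusted p 0.0264). The gene of the list that rose was Myl4, the atrial essential light chain, with 5.92, 3.47 and 3.07 FPKM in MI libraries, against 1.48, 1.64 and 2.05 FPKM in sham libraries (0.89), a call that was lost with median-ratio factors (0.29). Myl7, the other atrial light chain, was under the filter at 0.365, 0.329 and 0.0881 FPKM in MI libraries, against 0.0697, 0.485 and 0.206 FPKM in sham libraries. Myh6, Myh7 and Ckm lie over other annotated transcripts, so part of their reads may belong to those.

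Calcium handling genes were lower in 26 and higher in 5 of 31 (the same numbers with median-ratio factors), with a median of -1.52. Atp2a2, the SERCA2 pump that refills the sarcoplasmic reticulum, had 155, 232 and 399 FPKM in MI libraries, against 2262, 2627 and 2512 FPKM in sham libraries (-3.34), its inhibitor Pln, phospholamban, had 109.5, 174 and 322 FPKM in MI libraries, against 1918, 2115 and 1989 FPKM in sham libraries (-3.44), and Hrc, a calcium-binding protein of the reticulum, had a log2 fold change of -4.35. Ryr2, the release channel, had 7.73, 13.5 and 18.6 FPKM in MI libraries, against 72.3, 81.8 and 71.2 FPKM in sham libraries (-2.49). The 5 that rose are not confined to muscle. They were Fkbp1b (2.37), which binds release channels, the inositol trisphosphate receptors Itpr1 (1.35) and Itpr2 (1.47), the plasma membrane pump Atp2b1 (1.48) and Sri, sorcin (1.58).

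Ion channel and gap junction genes were lower in 28 and higher in 3 of 31 (28 and 2 with median-ratio factors), with a median of -1.31. Kcnip2, the subunit of the transient outward potassium current, had 1.64, 2.59 and 6.29 FPKM in MI libraries, against 52.3, 61.8 and 53.7 FPKM in sham libraries (-3.79), whereas Kcnj2, the inward rectifier, had 2.16, 2.58 and 2.36 FPKM in MI libraries, against 5.699, 6.83 and 5.34 FPKM in sham libraries (-1.04), a smaller fall with little spread between libraries. Gja1, connexin 43 of muscle and other cells, had 41.2, 58.98 and 65.2 FPKM in MI libraries, against 129, 136 and 126 FPKM in sham libraries (-1.25). Gja5, connexin 40 of arteries and conduction fibres, was higher, with a log2 fold change of 2.496. Gjc1, connexin 45, was also called higher (0.83), and its call was lost with median-ratio factors (0.082).

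Fatty acid oxidation had the lowest median of all lists. Of its 36 genes 33 were lower and 2 higher (35 and 1 with median-ratio factors), with a median of -2.50. Cpt1b, which admits fatty acids to muscle mitochondria, had 6.81, 13.6 and 23.9 FPKM in MI libraries, against 133, 141 and 151 FPKM in sham libraries (-3.33), and its form of other tissues, Cpt1a, had 36.1, 33.9 and 33.96 FPKM in MI libraries, against 11.9, 10.97 and 11.4 FPKM in sham libraries (1.52). Acadm, the medium-chain dehydrogenase, had 48.3 ± 16.4 FPKM in MI and 432 ± 24.6 FPKM in sham libraries (-3.19), and Pdk4, which turns pyruvate oxidation down, had a log2 fold change of -3.46. Acaa1a, a peroxisomal thiolase, was called higher (0.1984) but lower with median-ratio factors (-0.59), and the higher call was lost without MI library 2 (adjusted p 0.0663), MI library 3 (0.064), sham library 1 (0.0982) or sham library 2 (0.072).

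The respiratory chain fell as a block: 77 of 79 genes were lower and 2 higher (78 and 0 with median-ratio factors), with a median of -2.19, and the summed FPKM was 8989 to 13353 in MI libraries, against 47039.8 to 51576 in sham libraries. Cox7a1, a muscle subunit of cytochrome oxidase, had 49.8, 93.1 and 204 FPKM in MI libraries, against 2451, 2012 and 2189 FPKM in sham libraries (-4.47), and Cox6a2, another, had a log2 fold change of -3.68. Both higher genes are subunits that other tissues use. Cox6a1 had a log2 fold change of 0.76, which was -0.052 with no call with median-ratio factors. Cox8a had 0.19 (adjusted p 0.0476), which was -0.62 and called lower with median-ratio factors, and the higher call was lost without MI library 2 (adjusted p 0.083), MI library 3 (0.122), sham library 2 (0.164) or sham library 3 (0.0712). It was also lost with the 6 libraries alone (adjusted p 0.0919) and with the replicate block (0.0776).

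Metabolic and phosphotransfer genes were lower in 30 and higher in 3 of 34 (32 and 2 with median-ratio factors), with a median of -2.32. Ckm (chr7:19411094-19421583), the creatine kinase of muscle cytosol, had 22.4, 45.4 and 114 FPKM in MI libraries, against 958, 928 and 1086 FPKM in sham libraries (-4.31, SE 0.39, adjusted p 3.67e-08), and Ckmt2, its mitochondrial form, had a log2 fold change of -3.85. Mb, myoglobin, had 414, 719 and 1519.5 FPKM in MI libraries, against 8179, 8112 and 8714 FPKM in sham libraries (-3.44), and Ppargc1a, a coactivator of mitochondrial genes, had 0.811, 1.15 and 2.45 FPKM in MI libraries, against 10.7, 12.5 and 9.81 FPKM in sham libraries (-2.33). The higher genes included Ckb, the brain-type creatine kinase (1.83), and Slc2a1, the glucose transporter GLUT1 (1.29).

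**Figure D4:**
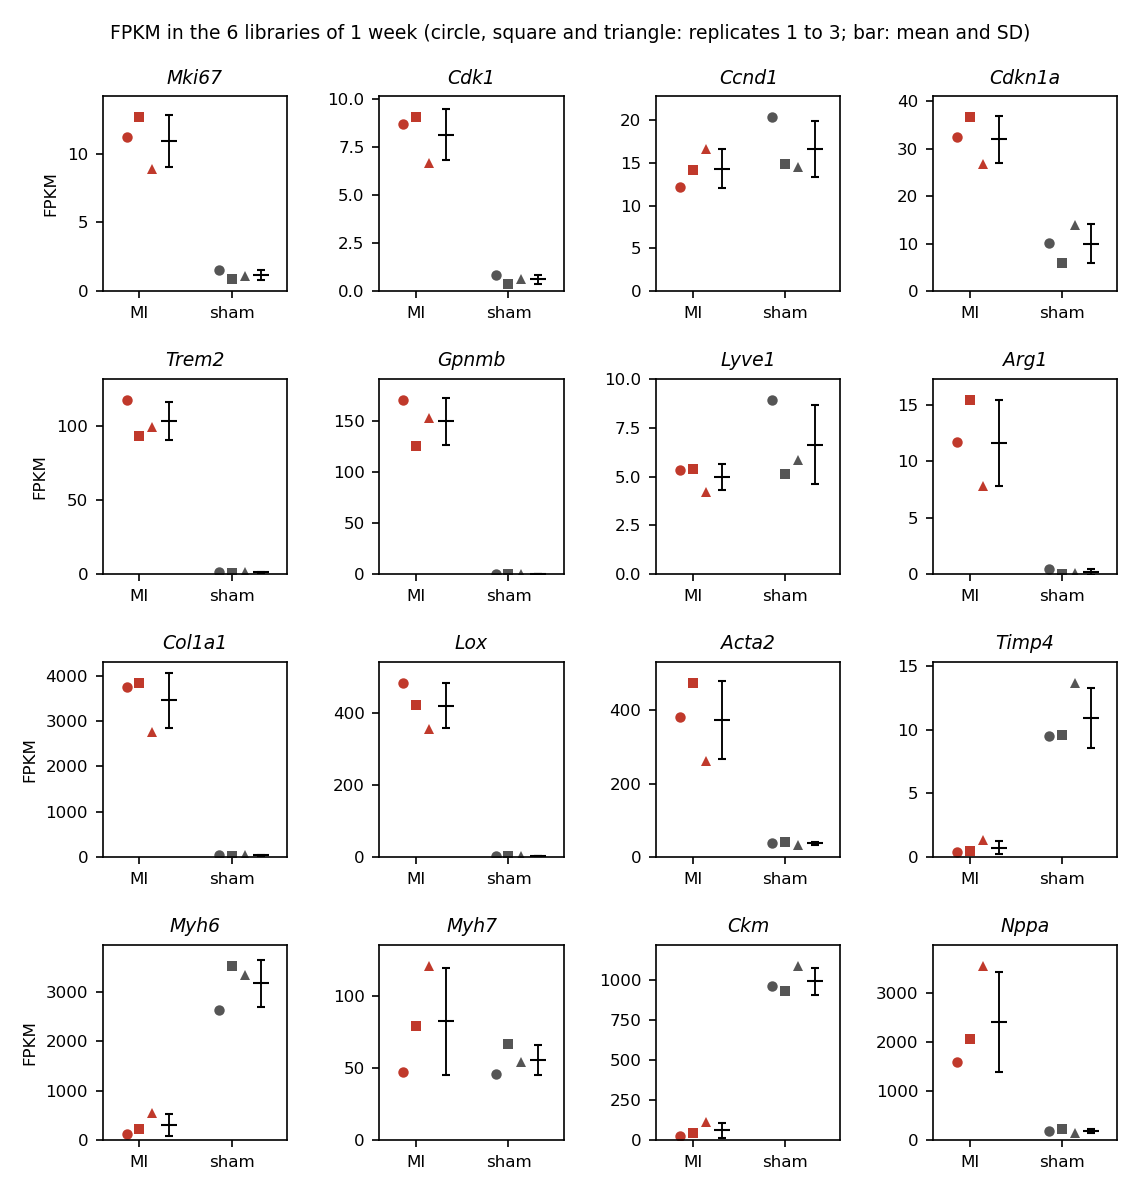
FPKM of 16 genes in each library of 1 week, MI in red left of sham in grey, with circles, squares and triangles for replicates 1 to 3 and the mean and SD of 3 libraries beside them. MI and sham libraries overlap in Ccnd1, Lyve1 and Myh7 and are apart in the other 13 genes, and the triangle of MI library 3 is the highest MI value in Myh6, Myh7, Ckm and Nppa.

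The gene plots set the tight MI values of phagocyte genes such as Trem2 beside the spread values of muscle genes such as Myh6, for which MI library 3 stood closest to sham.

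Transcription factors of the heart muscle were lower in 12 and higher in 5 of 21 (18 and 1 with median-ratio factors), with a median of -0.71, against -2.23 for the sarcomere list. Hopx, a small homeodomain protein, had 7.37, 9.53 and 19.6 FPKM in MI libraries, against 142, 164 and 157 FPKM in sham libraries (-3.66), whereas Gata4 had 13.8, 15.5 and 17.7 FPKM in MI libraries, against 22.8, 26.9 and 27.9 FPKM in sham libraries (-0.69) and Hand2 had 6.88, 6.101 and 6.94 FPKM in MI libraries, against 10.97, 12.2 and 11.3 FPKM in sham libraries (-0.71). Tbx20, a T-box factor of heart muscle, valves and endocardium, was higher, with 46.8, 44.6 and 47.04 FPKM in MI libraries, against 12.3, 13.2 and 12.3 FPKM in sham libraries (1.79), and was so on both scales. Of the other higher genes, Gata6, Mef2c and Tead1 turned lower with median-ratio factors (-0.31, -0.17 with no call, and -0.54), and Hey2 kept its sign without a call (0.14). The higher call on Tead1 (0.23) was lost without MI library 2 (adjusted p 0.0606).

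In the promoters of the muscle list the CArG box, the site of serum response factor, was read in the same 300 bases. Of 46 sarcomere genes 38 had a promoter in the table, and 6 of those (15.8%) held a CArG box, against 1.57% of all promoters. A CHR was found in 18.4% and a CCAAT box in 36.8% of the 38. Of the 27 myofibroblast genes 22 had a promoter and 3 (13.6%) held a CArG box. The promoter of Actc1, an actin gene that fell, is shown with its CArG box in capitals (chr2:114052826-114053125, minus strand).
Actc1: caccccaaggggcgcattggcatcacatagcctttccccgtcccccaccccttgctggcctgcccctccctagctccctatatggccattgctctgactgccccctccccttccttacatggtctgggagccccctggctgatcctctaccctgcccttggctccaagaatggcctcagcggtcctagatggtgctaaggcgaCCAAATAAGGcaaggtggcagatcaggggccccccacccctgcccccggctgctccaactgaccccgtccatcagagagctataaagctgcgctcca

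Genes of load and injury did not share a direction. Of 17, 8 were higher and 2 lower (5 and 5 with median-ratio factors), and the median of 0.43 was under that of all genes. Nppa, atrial natriuretic peptide, had 1593, 2053 and 3545 FPKM in MI libraries, against 178, 215 and 137 FPKM in sham libraries (3.696, SE 0.31, adjusted p 1.62e-08), highest in MI library 3. Nppb, the B-type peptide, had 130.0, 219.8 and 289 FPKM in MI libraries, against 221, 186 and 155 FPKM in sham libraries (0.12, adjusted p 0.675), with overlapping groups, and its sign turned with median-ratio factors (-0.69). Ankrd1, a stretch-responsive protein of the sarcomere, had 396, 623 and 907 FPKM in MI libraries, against 394, 448 and 520.3 FPKM in sham libraries (0.43, adjusted p 0.175), was -0.39 with median-ratio factors, and was called higher without MI library 1 (0.74, adjusted p 0.024). Clu, the chaperone clusterin, had 1011 ± 186 FPKM in MI and 179.5 ± 25.1 FPKM in sham libraries (2.48), and Gdf15, a stress cytokine, had a log2 fold change of 2.53. Bag3, a chaperone partner of the Z disc, was lower, with 31.5 ± 4.65 FPKM in MI and 55.7 ± 5.005 FPKM in sham libraries (-0.81).

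Markers of further cell types were counted for comparison. Endothelial markers were higher in 16 and lower in 5 of 26, but higher in 6 and lower in 13 with median-ratio factors, and their median of 0.50 turned to -0.26. Their FPKM summed to 1200.7 to 1379 in MI libraries, against 1265 to 1910.4 in sham libraries. Car4, the carbonic anhydrase of capillaries, had 0.647, 0.524 and 1.15 FPKM in MI libraries, against 13.2, 8.91 and 12.7 FPKM in sham libraries (-2.83), and Vwf, von Willebrand factor, had a log2 fold change of 1.55. Of 15 listed genes of dendritic cells and class II presentation 14 were higher and none lower with no filter. Of 14 that passed it, 6 of them only through the MI libraries, 13 were higher (12 with median-ratio factors), with a sum of 1026 to 1229 FPKM in MI libraries, against 107 to 138 FPKM in sham libraries, and H2-Ab1, a class II chain, had a log2 fold change of 3.24. T, B and NK cell markers were low: 8 of 18 passed the filter, all 8 were higher, 7 of them had passed only through MI, and over all 18 with no filter 15 were higher. The tested ones summed to 13.3 to 18.2 FPKM in MI libraries, against 2.52 to 3.26 FPKM in sham libraries.

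Skeletal muscle markers reached the filter in 3 of 12 genes, adipocyte markers in 4 of 10 and mesothelial markers in 6 of 10. MI library 1 had the highest MI value in all 6 mesothelial genes, and in 5812 of all 12440 genes tested. Of these 6 mesothelial genes, 5 passed only through the MI libraries, and over 8 measured mesothelial genes with no filter 7 were higher and none lower. The tested ones summed to 15.1 to 40.35 FPKM in MI libraries, against 1.32 to 2.62 FPKM in sham libraries, and the skeletal muscle genes to 39.0 to 70.4 FPKM in MI libraries, against 29.7 to 48.5 FPKM in sham libraries. Msln, mesothelin, had 10.4, 3.38 and 4.08 FPKM in MI libraries, against 0.428, 0.172 and 0.366 FPKM in sham libraries (2.27). The FPKM of 7 erythroid genes summed to 543 to 2074 in MI libraries, against 745 to 1438 in sham libraries. Of 7 atrial genes 5 were higher and 2 lower (4 and 2 with median-ratio factors), while Sln, sarcolipin of atrial muscle, was listed at 0.711, 0.1 and 0 FPKM in MI libraries and at 0 in all sham libraries. Their part in the results above was not tested.

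Beyond the lists, the rule for the largest changes named few genes not yet given. Sprr1a, a small proline-rich protein of stressed epithelia and muscle, was listed at 140, 155 and 130 FPKM in MI libraries, against 0.139, 0 and 0.319 FPKM in sham libraries. The largest fall was that of Rpl3l (chr17:24727826-24736143), the muscle form of a ribosomal protein, with 1.42, 1.45 and 5.73 FPKM in MI libraries, against 99.1, 107 and 121 FPKM in sham libraries (-5.003, SE 0.31, adjusted p 1.00e-09). Dhrs7c, an enzyme of the sarcoplasmic reticulum, had a log2 fold change of -4.13, and Plin5, which coats lipid droplets next to mitochondria, had a log2 fold change of -3.97.

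The stages were then set side by side. The difference between the MI effects was tested in the same limma model, with each stage against its own 3 sham libraries and with the genes that passed the filter at 1 week. Here and below, a larger effect is a more positive one and a smaller effect a more negative one, so a fall that deepened counts as smaller. The MI effect was larger at 1 week than at 1 day in 7620 genes (61.3%) and smaller in 1372 (11%). It was larger than at 8 weeks in 3854 (31%) and smaller in 2121 (17%). That excess of more positive effects was seen on the deposited scale. With median-ratio factors 3981 genes (32%) were larger and 3923 (31.5%) smaller than at 1 day. On that scale 3102 (24.9%) were larger and 3183 (25.6%) smaller than at 8 weeks. Since the filter was set on the libraries of 1 week, list counts are also given over all measured genes with no filter, where 53.5% of genes were larger and 10.3% smaller than at 1 day, and 24.8% larger and 15% smaller than at 8 weeks. Over all genes tested the median was 0.09 after 1 day, 0.81 after 1 week and 0.53 after 8 weeks. The MI libraries of 8 weeks differed among themselves. Their summed sarcomere FPKM was 48010, 33226 and 22240 in libraries 1 to 3, against 48894 to 50981 in sham libraries of 8 weeks. Fibrillar collagens summed to 507, 881 and 2325 FPKM in these MI libraries, and adipocyte markers to 24.0, 280 and 1225 FPKM. Medians at 8 weeks thus rest on libraries with unlike levels.

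The mitosis list had its highest median at 1 week, with 1.80, beside 0.02 after 1 day and 0.54 after 8 weeks. Over all 78 genes with no filter, the effect at 1 week was larger than at 1 day in 76 and smaller in none, and larger than at 8 weeks in 72 and smaller in 1. Of the 76 that passed the filter, 52 of them only through the MI libraries of 1 week, 74 were larger and none smaller than at 1 day (71 and 1 with median-ratio factors), and 70 were larger and 1 smaller than at 8 weeks (the same numbers with median-ratio factors). In stage order, early to late, Mki67 had log2 fold changes of 0.26, 2.46 and 0.77. Cdkn1a ran differently, with 3.32, 1.64 and -0.56, and Myc was at its highest on day 1 (3.72, 2.07 and 1.47).

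The phagocyte lists differed between the stages. The inflammatory cytokine list had medians of 4.19, 1.62 and 1.43, and 15 of its 17 genes had a smaller effect at 1 week than at 1 day and none a larger one (17 and 0 with median-ratio factors, 20 and 0 of 22 with no filter). The lysosome list had medians of 0.38, 2.44 and 1.38, with 56 of 59 genes larger at 1 week than at 1 day and 47 larger than at 8 weeks (48 and 45 with median-ratio factors, 56 and 47 with no filter). Gpnmb had -0.45, 6.89 and 5.45, Arg1 had 6.299, 3.398 and 0.86, and Gas6 had -1.33, 2.44 and 2.45 at the 3 stages. The neutrophil list had medians of 6.59, 1.00 and 1.30 over the 6 genes that passed the filter. Over 14 measured genes with no filter they were 5.34, 0.78 and 0.45, so the order of 1 week and 8 weeks depended on the filter.

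At 1 day the matrix lists differed from each other. At that stage 39.7% of all genes tested were higher and 30.9% lower (39.5% and 37.3% with median-ratio factors). Fibrillar collagens were higher in 2 of 10 and lower in 0, and other collagens higher in 5 of 18 and lower in 3. Glycoproteins were higher in 21 of 47 and lower in 7, and proteases and inhibitors higher in 19 of 37 and lower in 9. With median-ratio factors the higher counts of these lists were the same and the lower counts were 0, 5, 12 and 12. Collagen folding and crosslinking genes were higher in 18 of 36 and lower in 5 (18 and 8 with median-ratio factors). Fibroblast factors and receptors were higher in 16 of 31 and lower in 2 (17 and 5). Proteoglycans were higher in 9 of 25 and lower in 7 (10 and 8), and myofibroblast genes higher in 12 of 27 and lower in 7 (13 and 9). Tnc (4.39), Fn1 (3.35), Mmp14 (2.399) and Postn (1.48) were among the genes already higher then, as were Lox (3.14) and Timp1 (4.71). Fibrillar collagens had stage medians of -0.0024, 5.44 and 2.40, and all 10 tested chains had a larger effect at 1 week than at either other stage on both scales, and with no filter 10 of 11 were larger than at 1 day and 10 of 11 larger than at 8 weeks. Proteoglycan medians were 2.61 at 1 week and 2.46 at 8 weeks, and 9 of 25 genes were larger and 3 smaller at 1 week than at 8 weeks (9 and 7 with median-ratio factors). Comp, a cartilage matrix protein that binds collagen, had -0.33, 6.46 and 7.96 at the 3 stages, and Fmod had -0.14, 5.78 and 6.92.

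The fall of muscle genes was deepest at 1 week in most lists. Medians for the respiratory chain were -1.02, -2.19 and -0.69, with a more negative effect at 1 week in 75 of 79 genes than at 1 day and in 78 than at 8 weeks, against the backgrounds of 11% and 17%. With median-ratio factors these were 77 and 78 genes, against backgrounds of 31.5% and 25.6%. Sarcomere genes had medians of -1.05, -2.23 and -0.59, with a more negative effect at 1 week in 31 of 46 genes than at 1 day and in 43 than at 8 weeks (36 and 44 with median-ratio factors). Ion channels had -1.41, -1.31 and -0.60, and 10 of 31 had a more negative effect at 1 week than at 1 day and 5 a less negative one (14 and 2 with median-ratio factors). Load and injury genes had medians of 1.97, 0.43 and 0.78, with a smaller effect at 1 week than at 1 day in 11 of 17 genes and a larger one in 4 (11 and 1 with median-ratio factors). Nppb had 2.76, 0.12 and 1.64, and Ankrd1 had 2.56, 0.43 and 2.303. Myh7 was not called at 1 day (-0.48) and had 2.54 at 8 weeks.

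**Figure D5:**
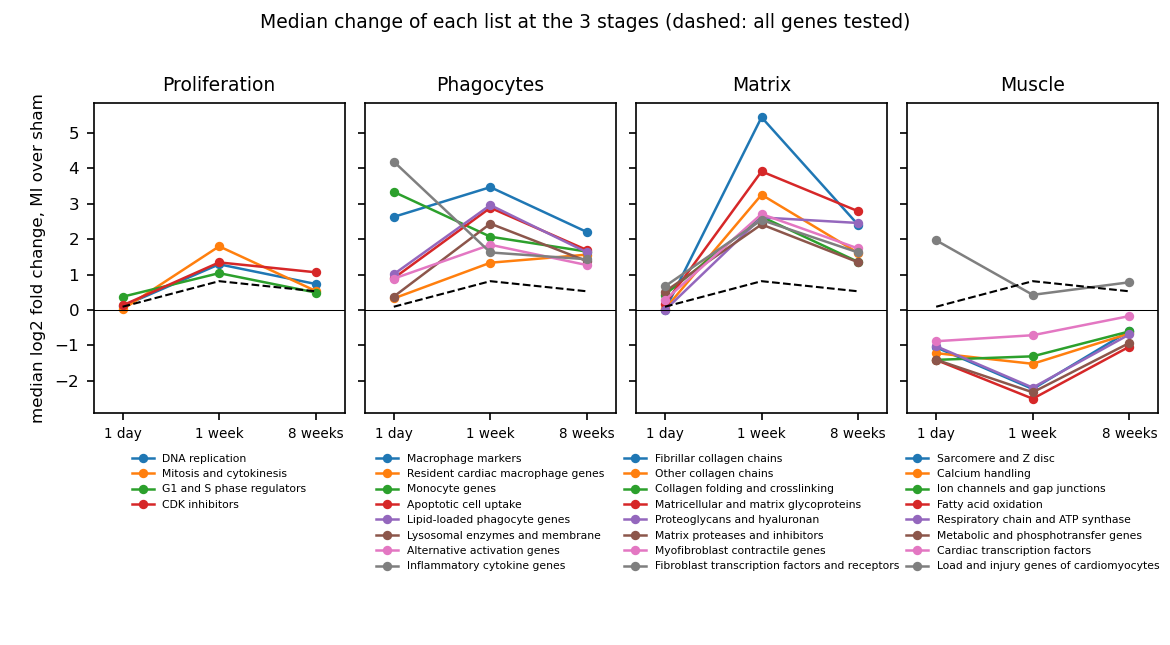
Median log2 fold change of MI over sham for each gene list at the stages of the series, each with 3 MI and 3 sham libraries, in panels for proliferation, phagocytes, matrix and muscle. The dashed line is the median of all genes tested (0.09, 0.81 and 0.53). Mitosis and fibrillar collagens peak at 1 week, inflammatory cytokine and load genes at 1 day, and most muscle lists are lowest at 1 week.

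The stage plot reads each list against the median of all genes at that stage, which itself shifted, so a list on the dashed line moved no further than a typical gene.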

How the data were processed

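Libraries had been made from total RNA of pooled left ventricles with a TruSeq kit, and the build mm10 is named in the submitters' processing notes together with Cufflinks 2.2.1, Bowtie2 2.2.3 and TopHat2 2.0.13, with no options. The authors deposited FPKM for 16415 genes, scaled by transcript length and mapped fragments, without counts. A second set of deposited columns holds the authors' normalized log2 values, used as an alternative. The authors' comparison columns (a signed fold, p-values and adjusted p-values, with means and SDs of the groups) were not used. Whether reads were assigned by strand is not given in the sources used here, and 69 of the 195 named genes overlap another annotated gene, so reads of such pairs cannot be told apart.

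Values were tested as log2(FPKM + 1) with limma 3.58.1 (intensity trend) in R 4.3.3, in 1 model of 18 libraries and 6 groups, for the 12440 genes that reached 1 FPKM in 3 or more of the 6 libraries of 1 week, with Benjamini-Hochberg adjustment over all of them and a threshold of 0.05. Tables and plots were made with Python 3.11.15, pandas 2.3.3, numpy 2.4.6 and matplotlib 3.10.9. The genes and the 39 lists were chosen with earlier results of these data known. Named genes are landmarks of each program, the 3 largest changes of each list and the 10 largest rises and falls (adjusted p below 0.05, no overlap between libraries, a mean of at least 5 FPKM in the higher group, no predicted, small RNA, haemoglobin or immunoglobulin genes), and the members that went against their list. Some items are not reported here. Of 12440 genes 12416 were matched to RefSeq (GRCm38.p6, the coordinates of mm10), which gave positions and promoters. The model was tested on simulated data with known changes. Alternatives were other pseudocounts (0.1), filters, normalizations, the 6 libraries alone, no trend, the replicate number as a block and leaving out each library in turn.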

Additional observations from a re-analysis of the deposited data

Results flagged for a closer look

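The MI effect differed between 1 week and 1 day in 8992 genes and between 1 week and 8 weeks in 5975 genes (limma, 3 MI and 3 sham libraries per stage). Some named genes were called in opposite directions at the 2 stages, and the difference itself passed the test.

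Against 1 day, the MI effect at 1 week was larger by a log2 difference of 7.34 for Gpnmb, 6.57 for the matrix proteoglycan Aspn and 3.77 for Gas6, all of which were lower in MI at 1 day and higher at 1 week. Lower at 1 day and higher at 1 week were also Tk1 (2.92) and the kinase inhibitor Cdkn2c (2.35) among proliferation genes, Lamp1 (1.79) of the lysosome, and Notch3 (2.62) and Myh11 (2.25) of mural cells. The same turn was seen in the muscle lists for Tbx20 (2.84), Ckb (2.71), Mef2c (1.46), Hey2 (1.28), Gata6 (0.93), Acaa1a (0.86), Tead1 (0.66) and Cox8a (0.55), of which Mef2c, Gata6, Acaa1a, Tead1 and Cox8a changed sign at 1 week with median-ratio factors. Car4 of capillaries (-3.87) and the filamin Flnc (-3.01) were higher at 1 day and lower at 1 week, and the lower call on Flnc at 1 week was lost without MI library 1 (adjusted p 0.0538, limma).

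Against 8 weeks, Cdkn1a (2.202) and Tead1 (0.68) were higher at 1 week and lower at 8 weeks. Retnla (-4.62), Tnxb (-1.66), Cdkn1c (-1.51) and the lipid transfer gene Stard10 (-0.86) were lower at 1 week and higher at 8 weeks.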

How the results depend on the processing

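The count of genes changed at 1 week was 11229 of 12440, and it ranged from 11013 to 11116 when each library was left out in turn. The counts that differed from 1 day (8992) and from 8 weeks (5975) ranged over the same omissions from 8501 to 8817 and from 4813 to 5734. Among genes with a mean of at least 5 FPKM, fewer of which could be tested, the counts were 7034, 5613 and 3955. With the replicate number as a replicate block they were 11147, 8902 and 5697. Deviations of libraries with the same number correlated at 0.308, -0.0878 and 0.086 for numbers 1 to 3, and not every library correlated best with its own number. Such correlations among 3 libraries per group cannot tell whether libraries with the same number were paired.

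Of 195 named genes, 184 kept their direction under every alternative run and 173 also their call, and 34 of 39 list medians kept their direction. The exceptions came mostly with scaling, in the order quantile normalization, median-ratio factors and the authors' normalized values. For genes these were Myh11 (-0.055, -0.020 and -0.057), Myh7 (-0.032, -0.33 and -0.030), Nppb (-0.050, -0.69 and -0.065), Acaa1a (-0.43, -0.59 and -0.44), Gata6 (-0.31, -0.31 and -0.32), Mef2c (-0.24, -0.17 and -0.25) and Tead1 (-0.47, -0.54 and -0.48). Ankrd1 (-0.39), Cox6a1 (-0.052) and Cox8a (-0.62) turned with median-ratio factors, Hey2 with quantile normalization (-0.15) and the authors' values (-0.15), and Nppb also without MI library 3 or sham library 3, its values ranging from -0.13 to 0.44 as each library was left out. List medians that turned were those of load and injury genes (-0.050, -0.39 and -0.065), endothelial markers (-0.24, -0.26 and -0.24), pericyte markers (-0.19, -0.37 and -0.19) and adipocyte markers (-0.30, -0.13 and -0.37, and -0.72 at a mean of at least 5 FPKM), and of erythroid markers without MI library 2 (0.025, the highest of the values from -0.90 upwards as each library was left out). Beyond the shift of all genes that the scaling sets, the cause was not tested. Without counts, precision at low FPKM is unknown.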

Other observations

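Several proteins of energy use and translation have a form typical of muscle and a form of most other tissues, and the muscle share of such pairs was lower in MI at 1 week. These 13 pairs were chosen after their values had been seen, so they are given with no test of the pattern. The form counted as muscle was lower in MI in all 13 pairs on both scales, and the form counted as general was higher in 9 and lower in 3 (higher in 7 and lower in 5 with median-ratio factors). For lactate dehydrogenase the heart subunit Ldhb was counted as muscle, and Ldha, the subunit of skeletal muscle, as general. Ckm averaged 60.5 ± 47.5 FPKM in MI libraries and 991 ± 84.1 FPKM in sham libraries (s.d., n = 3 each), while Ckb averaged 73.9 ± 2.60 FPKM in MI libraries and 20.1 ± 1.69 FPKM in sham libraries, so that the muscle form made up 45.02% of the pair in MI and 98.01% in sham libraries. For the enolases Eno3 and Eno1 the muscle share was 22.9% in MI and 92.2% in sham libraries.

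A ribosomal protein gave another such pair. Rpl3l averaged 2.87 ± 2.48 FPKM in MI libraries and 109 ± 11.3 FPKM in sham libraries, and Rpl3 averaged 506 ± 42.8 FPKM in MI libraries and 103 ± 13.8 FPKM in sham libraries, a muscle share of 0.564% in MI and 51.5% in sham libraries. The muscle form still made up most of the pair in MI for Cox7a1 (57.2%), Pfkm (65.5%) and Slc25a4 (75.8%). The form counted as general also fell in 3 pairs on the deposited scale: Cox7a2 (86.8 ± 13.2 FPKM in MI and 315 ± 15.9 FPKM in sham libraries), the liver type Pfkl, and Ldha. Slc25a5, the general adenine nucleotide carrier, was not called (adjusted p 0.103, limma) and was lower with median-ratio factors.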
